A study of Mus musculus with 9 samples.

Results

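The control cultures of a Tdp-43 knockdown series are described here at baseline: primary mouse cortical neurons that had received a lentivirus with a control short hairpin RNA (shCont). They are the 3 arrays labelled control shRNA, out of 9 arrays in the series; the other 6 carry either of the hairpins shTdp-43-1 and shTdp-43-2 against Tdp-43, with 3 arrays each. Cells came from the cortex of C57BL/6 embryos on embryonic day 15, after the meninges had been removed. All groups were grown in a medium with 1% fetal bovine serum, B27 supplement, BDNF and CNTF, and were given the antimitotic agent AraC overnight from day 2. Infection took 4 h on day 5, and after 6 further days the cells were harvested on day 11. Each array was hybridised with cDNA made from 100 ng of total RNA. The control differs from an untouched culture in that it too was infected and expressed a hairpin. The labels give neither the sex nor the pooling of the embryos and do not say whether replicates were separate cultures, so the spread between arrays may be technical. The series' own design text names the cells motor neurons, unlike the sample labels, and counts the 11 days from transfection, so the levels of motor neuron and forebrain genes are given with the markers.

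The embryonic mouse cortex holds excitatory neurons born from radial glia beneath the cortex and inhibitory neurons that migrate in from the ventral forebrain. Radial glia later give rise to astrocytes, and oligodendrocyte precursors arrive from several zones. AraC kills dividing cells and is used to limit glia in neuronal cultures, whereas serum and CNTF favour astrocyte differentiation. Receptors and channels of neurons are built from subunits of gene families, and the subunits in use change as neurons mature: young neurons are known for Grin2b in the NMDA receptor and adult neurons for more Grin2a.

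The Affymetrix Mouse Exon 1.0 ST array carries probe sets along the exons of each gene. Each gene was given the average of the deposited log2 values over the probe sets that name that gene alone, at least 3 of them, so that a step of 1 is a doubling of signal. This gave 20087 genes, and the median gene had 12 probe sets. The value does not grow with transcript length, but it carries the affinity of the probes. Over the 14523 genes with at least 8 probe sets, the interquartile range of probe sets within a gene had a median of 1.70, against a median SD over the control arrays of 0.0881. A difference between genes can therefore be far larger than the spread between arrays and still lie within the spread of probe sets. The gene values of control replicates 1, 2 and 3 had medians of 7.99, 7.93 and 8.01, and across genes the control arrays correlated with r from 0.995 to 0.997. In bulk RNA, fewer cells of a type and less RNA per cell cannot be told apart.

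A pair of levels served as a guide to what lies above the signal of genes with little RNA. The first was the 95th percentile of 594 olfactory and vomeronasal receptor genes, which lay at 6.20, 6.24 and 6.03 on the 3 control arrays. Above it on every control array were 14411 of 20087 genes (71.7%). This level is lenient, since 14 of 26 Hox genes, which set position in the hindbrain and spinal cord, also passed it. The second level, chosen after seeing the data, was the highest Hox gene, Hoxb3, at 8.10, 8.07 and 8.09. Above it on every control array were 9499 genes (47.3%). Each later count of list genes above this second level is to be read beside that share. The mean of Hoxb3 holds 1 probe set at 14.17, whereas the upper quartile of its 9 probe sets is 7.83; Hoxa4 came next at 7.87. Unless said otherwise, a marker is counted as present only above the Hox level, and a value under it is called low, which does not show that the transcript is absent.

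The markers Tubb3, Slc17a7, Gad2, Gfap and Nes, which stand for neurons, their excitatory and inhibitory classes, astrocytes and progenitors, were above both levels on every control array, and their order was Tubb3, Gfap, Slc17a7, Gad2 and Nes. Tubb3, the beta-tubulin of neurons, read 12.41, 12.39 and 12.17 on replicates 1, 2 and 3 (mean 12.33 ± 0.132, SD, n = 3). Gfap, the intermediate filament of astrocytes, read 11.02, 10.86 and 11.58 (11.16 ± 0.377). Gfap was thus the most variable of the 5, with replicate 3 highest. Slc17a7, the vesicular glutamate transporter VGLUT1 of cortical excitatory neurons, read 10.04, 9.85 and 9.74 (9.88 ± 0.155). Gad2, the GABA-synthesising enzyme GAD65 of inhibitory neurons, read 9.43, 9.44 and 9.49 (9.45 ± 0.0298). Nes, the intermediate filament nestin of neural progenitors, read 8.19, 8.13 and 8.18 (8.17 ± 0.0345). No neighbours in this order overlapped over the 3 arrays. Nes, however, lay close to the Hox level on each array, while the lower quartile of the probe sets of Gfap (10.98) was above the upper quartile of Nes (8.84).

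The promoters of these markers are shown because the level of a gene in the control cultures went with the number of CG pairs before its start. The 250 bases before the RefSeq start are given 5′ to 3′ on the strand of the gene (RefSeq, build GRCm38.p6), with each CG in capitals.
Tubb3, chr8:123411303-123411552, plus strand: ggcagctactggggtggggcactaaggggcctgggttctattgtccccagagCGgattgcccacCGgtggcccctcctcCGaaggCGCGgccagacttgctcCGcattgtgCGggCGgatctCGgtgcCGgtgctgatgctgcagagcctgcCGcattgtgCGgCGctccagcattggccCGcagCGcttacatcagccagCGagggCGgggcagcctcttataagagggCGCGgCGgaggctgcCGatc
Slc17a7, chr7:45163671-45163920, plus strand: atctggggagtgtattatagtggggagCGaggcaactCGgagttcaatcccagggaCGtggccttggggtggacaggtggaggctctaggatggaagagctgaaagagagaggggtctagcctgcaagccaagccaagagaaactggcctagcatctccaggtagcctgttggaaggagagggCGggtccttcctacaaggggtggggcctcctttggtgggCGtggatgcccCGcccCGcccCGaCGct
Gad2, chr2:22622077-22622326, plus strand: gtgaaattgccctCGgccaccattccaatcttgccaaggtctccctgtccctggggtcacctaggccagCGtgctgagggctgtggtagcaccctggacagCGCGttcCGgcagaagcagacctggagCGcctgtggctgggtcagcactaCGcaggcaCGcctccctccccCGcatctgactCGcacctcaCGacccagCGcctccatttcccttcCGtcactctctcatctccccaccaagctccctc
Gfap, chr11:102897201-102897450, minus strand: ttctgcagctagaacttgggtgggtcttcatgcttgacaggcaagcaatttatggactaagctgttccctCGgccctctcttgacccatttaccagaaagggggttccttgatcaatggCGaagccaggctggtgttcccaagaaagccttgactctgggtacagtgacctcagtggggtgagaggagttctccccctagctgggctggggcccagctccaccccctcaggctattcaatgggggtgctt
Nes, chr3:87970843-87971092, plus strand: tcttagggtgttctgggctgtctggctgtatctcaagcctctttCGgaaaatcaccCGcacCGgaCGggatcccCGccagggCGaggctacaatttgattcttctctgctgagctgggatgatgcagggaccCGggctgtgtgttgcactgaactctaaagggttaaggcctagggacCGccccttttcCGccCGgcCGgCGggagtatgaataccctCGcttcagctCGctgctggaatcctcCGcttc
Tubb3 has 21 CG pairs in this window, Nes 15, Gad2 13, Slc17a7 9 and Gfap 2. None of the 5 holds TATAAA on either strand (searched as TATAAA and its complement TTTATA), a motif found in 10.8% of the 12937 genes with a value and a single listed promoter. Among those genes the median value was 5.44 where the window has 0 to 3 CG pairs, 6.87 with 4 to 9, 8.91 with 10 to 19 and 9.31 with 20 or more. The share of genes above the Hox level was 6.24%, 30.3%, 65.6% and 74.6% in the same order. Across genes, which are not independent replicates, the number of CG pairs and the level correlated with Pearson's r of 0.573 and Spearman's rho of 0.633; the base composition of the probes was not tested. Gfap is an exception by this measure, bright with 2 CG pairs, and so is its list: the 9 astrocyte markers with a single promoter had a median of 2 pairs, against 20 in 7 pan-neuronal genes and 11 in all genes. The receptor genes that set the first level had a median of 1 pair. Apart from Tubb3, the order of the shown markers by level was the reverse of their order by CG pairs. Nes, with 15 pairs, read 8.17, under the median of 8.91 of genes with 10 to 19.

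**Figure D1:**
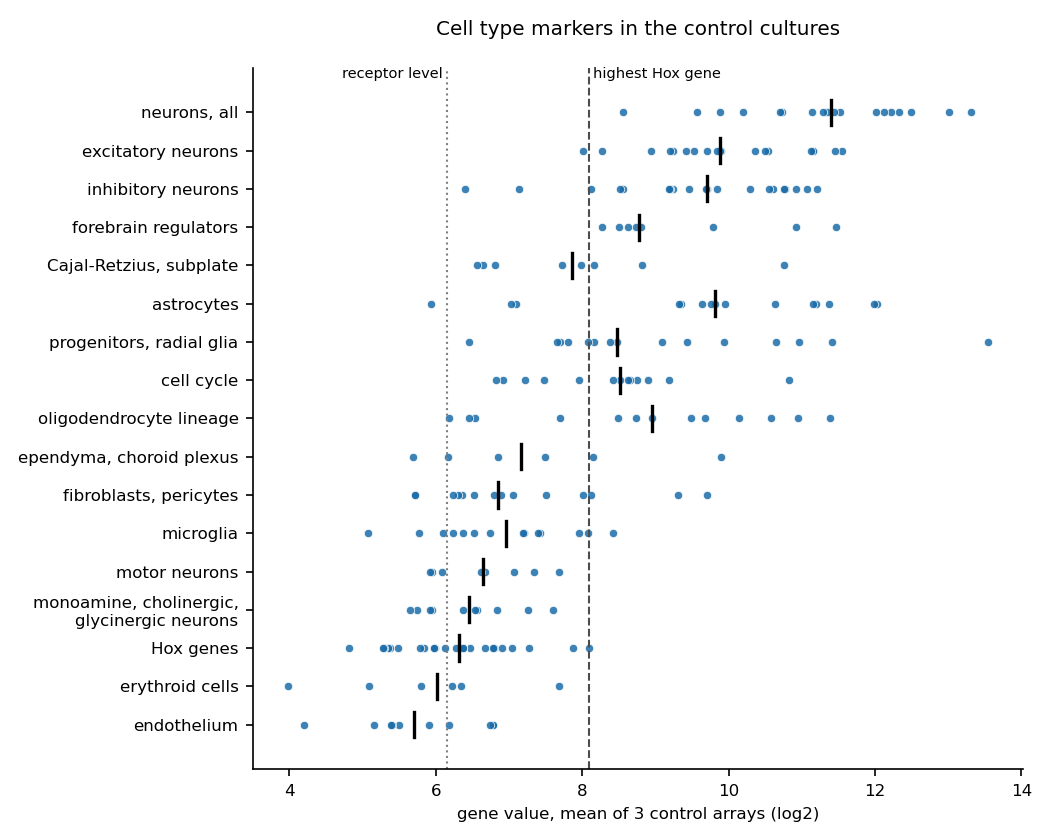
Values of cell type markers in the control cultures. The x axis is the gene value (log2, mean of 3 control arrays); each point is a gene, the black bar is the median of its list, the dotted line is the receptor level (6.16) and the dashed line the highest Hox gene (8.09). Lists of neurons, astrocytes, progenitors and the oligodendrocyte lineage reach far above the dashed line, whereas all endothelial, erythroid and motor neuron markers lie under it.

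General neuronal genes were high throughout. All 18 pan-neuronal markers with a value were above the Hox level, against 47.3% of all genes, and their median was 11.39. Ina, the neurofilament internexin of young neurons, read 13.32, 13.31 and 13.28, and Gap43, a growth cone protein, 12.97, 13.05 and 12.99. Synaptotagmin Syt1, the calcium sensor of vesicle release, had a mean of 12.49, and the microtubule protein Dcx of migrating neurons 11.44. The 3 neurofilament chains came in the order Nefl (11.29 ± 0.0642, SD), Nefm (9.56 ± 0.146) and Nefh (8.55 ± 0.161), with no overlap over the arrays. Nefh, the chain that rises as axons mature, read 8.69, 8.60 and 8.38 and was the lowest of the 18.

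Genes of excitatory cortical neurons were above the Hox level in 18 of 19 cases, with a median of 9.88. The transcription factors of the excitatory lineage Neurod2 (11.61, 11.54 and 11.50) and Neurod6 (11.43, 11.50 and 11.41) led the list and overlapped over the arrays. Deep layer genes were present: Fezf2, a determinant of subcerebral projection neurons, at 11.12 ± 0.170 (SD, n = 3), Bcl11b at 10.54 ± 0.117 and Tbr1 at 9.52 ± 0.0490. Upper layer genes were present too, with Cux1 at 9.70, Rorb at 9.42 and Cux2 at 9.20. Slc17a6, the transporter VGLUT2, read 10.00, 9.74 and 9.77, and it overlapped with Slc17a7 on the arrays (difference 0.04 ± 0.0714, SD over arrays). Foxp2, a gene of the deepest layer, was not above the Hox level on every array, at 8.09, 7.96 and 7.96.

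Genes of inhibitory neurons were above the Hox level in 17 of 20 cases, with a median of 9.70. Gad1, the GABA-synthesising enzyme GAD67, read 10.75, 10.72 and 10.79, above Gad2 on every array. The vesicular GABA transporter Slc32a1 had a mean of 9.24, and the ventral forebrain regulators Dlx1 and Lhx6 had means of 10.92 and 10.29. Among the peptide genes of interneuron subtypes on this list, Npy (11.00, 10.63 and 10.67) and Sst (10.78, 10.52 and 10.37) were highest and overlapped over the arrays. Calb1 and Calb2, which encode calcium-binding proteins of several interneuron types, stood at 10.61 and 9.84. Pvalb, the calcium-binding protein of fast-spiking interneurons that matures after birth, read 6.24, 6.44 and 6.51, and Vip, a peptide gene of another interneuron type, had a mean of 7.13. These 2 were low on every control array, and Adarb2 (7.98, 8.07 and 8.32) was not above the Hox level on every array. Of 8 markers of Cajal-Retzius and subplate neurons, which are born first in the cortex, 2 were above the Hox level on every array: Nr4a2 at 10.76 and Ccn2 at 8.81. The Cajal-Retzius genes Trp73 (7.73), Lhx5 (6.81) and Lhx1 (6.56) were low, while Reln, which interneurons also make, read 10.96, 11.17 and 11.09.

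Forebrain genes were high and motor neuron genes low on all 3 control arrays. All 8 forebrain regulators with a value were above the Hox level, led by Lhx2 (11.55, 11.47 and 11.38) and Dlx1, with Emx1, the marker of the dorsal telencephalon, lowest at 8.43, 8.15 and 8.22. Of the 8 motor neuron markers 0 were above it. Mnx1, the defining transcription factor of motor neurons, read 6.13, 5.97 and 6.15, Isl1 read 6.79, 6.48 and 6.59, and Chat, which makes acetylcholine, read 5.92, 5.83 and 6.01. The highest of them was Prph, a neurofilament of peripheral and motor axons, at 7.77, 7.71 and 7.57. Of 10 markers of monoamine, cholinergic and glycinergic neurons 0 were above the Hox level, with Th, the first enzyme of dopamine synthesis, highest at 7.60.

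Glial genes were bright although the cultures had been given AraC. Of 15 astrocyte markers 12 were above the Hox level, with a median of 9.82, a count set beside the 47.3% of all genes. Aldoc, a glycolytic enzyme of astrocytes, read 11.92, 11.91 and 12.24, and Glul, which makes glutamine, read 11.86, 11.89 and 12.21. The glutamate transporter Slc1a2 had a mean of 11.19 ± 0.151 (SD, n = 3), Sox9 10.64 ± 0.0902 and the water channel Aqp4 9.82 ± 0.273. Replicate 3 was the highest array for Aldoc, Glul, Slc1a2, Gfap, Sox9 and Aqp4, but not for Aldh1l1 (9.92, 9.83 and 9.51) or Fgfr3 (9.46, 9.35 and 9.24), where it was lowest. The summed values of the 15 markers were 146, 145 and 148 on replicates 1, 2 and 3. The 3 low markers were S100b (7.10), Gja1 (7.03) and Gjb6 (5.93), of which Gja1 and Gjb6 encode the connexins of astrocyte gap junctions.

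The probe sets of some astrocyte genes fell into separate groups, so that the level of the gene depends on the summary used. Slc1a3, the transporter GLAST of astrocytes and radial glia, had 13 of its 31 probe sets above 10, up to 13.31, and 12 under 7, with a mean of 9.33. For Gja1, 4 of 17 probe sets were above 10, up to 12.26, and 10 were under 7. With the upper quartile of the probe sets as the gene value, an alternative chosen after seeing the data, Slc1a3 read 12.74, Gja1 8.55 and S100b 8.71, against 7.83 for Hoxb3. The call of Gja1 and S100b as low thus holds for the mean, while by the upper quartile both were above Hoxb3. This comparison covers Hoxb3 alone, whose brightest probe set (14.17) is above that of Gja1 (12.26).

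Progenitor and radial glial genes ranged from the top of the array to near the receptor level, with a median of 8.48. Of the 15 genes 10 were above the Hox level, beside 47.3% of all genes. Fabp7, the fatty acid binding protein of radial glia that young astrocytes share, read 13.49, 13.59 and 13.54. Sox2, a stem cell factor kept by astrocytes, read 11.30, 11.40 and 11.52, and the Notch target Hes5 11.03, 10.83 and 11.02. Genes more specific to dividing progenitors were lower than these and lay on both sides of the Hox level. Pax6 read 7.71, 7.55 and 7.82, and the proneural factors Neurog2 and Neurog1 had means of 7.66 and 6.45. Eomes, the factor of intermediate progenitors, had a mean of 8.38 and was above the Hox level on every array. So were Insm1 (9.04 to 9.13) and Notch1 (9.41 to 9.45) of the same list. Among 13 cell cycle genes 8 were above the Hox level, beside 47.3% of all genes, with a median of 8.52. Pcna, which also serves DNA repair, was highest at 10.82. Mki67, the proliferation antigen, read 8.62, 8.83 and 8.43, and Top2a (7.84, 8.15 and 7.89) was not above the Hox level on every array.

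Of 13 markers of the oligodendrocyte lineage 9 were above the Hox level, beside 47.3% of all genes, with a median of 8.96. Olig1 (11.46, 11.31 and 11.38), Olig2 (10.60, 10.47 and 10.67) and the precursor receptor Pdgfra (10.15, 10.13 and 10.13) were high and did not overlap with each other over the arrays. Gpr17, a receptor of cells that have committed to differentiate, read 10.96, 10.74 and 11.13. Myelin genes were spread over the range. Cnp, an enzyme of myelin that precursors also make, read 9.65, 9.65 and 9.72, and Mbp, which is also transcribed from a longer unit in other cells, had a mean of 8.96. Bcas1, a gene of cells that begin to form myelin, read 8.51, 8.70 and 9.01. The lowest were Mog (6.16, 6.21 and 6.16), Mag with a mean of 6.46 and Mobp with a mean of 6.53.

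Markers of other cell types were mostly low. Of 14 microglial markers 1, the lysosomal gene Cd68 (8.54, 8.20 and 8.52), was above the Hox level, while C1qb (8.30, 7.88 and 8.07) and Trem2 (mean 7.96) lay near Hoxb3. The other 11 ranged from a mean of 7.43 for C1qa to 5.07 for Ptprc, with Cx3cr1, Tmem119, Aif1 and P2ry12 among them. Of 10 endothelial and 6 erythroid markers 0 were above it, with the tight junction gene Cldn5 at 5.39. Of 14 fibroblast and pericyte markers Fn1 (9.71) and Pdgfrb (9.30) were above it on every array, and the proteoglycan Dcn (8.09, 8.09 and 8.18) and the collagen Col1a1 (8.07, 8.03 and 7.94) lay at about the same height as Hoxb3. The level of Dcn depends on the summary used: 8 of its 19 probe sets were above 10, up to 12.46, and 9 were under 7. Ttr, a carrier made by choroid plexus, read 9.53, 9.85 and 10.31 and had the widest range over the arrays of all list members, 0.78, while the other 5 ependymal and choroid markers were not above the Hox level on every array, from Foxj1 (8.10, 8.18 and 8.15) and Folr1 (7.49) down to Kl (5.69). Of the 4 sex-linked genes with a value 2 were above the Hox level, the Y-linked Eif2s3y and Kdm5d, at 9.74 and 8.69. The Y-linked Uty was not above the receptor level on every array. Xist, which the inactive X chromosome of females transcribes, read 4.92, 5.10 and 5.24. The part of these cells in the levels of shared genes was not tested.

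The 25 genes with the highest values, with means from 13.01 to 13.84, included a few groups. Mitochondrially encoded subunits of the respiratory chain made up 5 of them: ND1 (13.73, 13.93 and 13.88), ND5, COX1, COX3 and COX2. On replicate 1 each of these 5 was lowest, as for COX2 (12.89, 13.22 and 13.07). Beta-tubulins made up 3: Tubb5 at 13.56, Tubb2b at 13.23 and Tubb2a at 13.20. Genes of growing neurites and axons included Dpysl2 (13.33) and Dpysl3 (13.26), which encode collapsin response mediator proteins, Gap43, Ina and the membrane glycoprotein gene Gpm6a (13.01). G protein signalling was represented by the beta subunit Gnb1 (13.62) and the gamma subunit Gng2 (13.39), and lipid synthesis by Scd2, the stearoyl-CoA desaturase of brain, at 13.74, 13.79 and 13.80. Fabp7 and Cst3, a protease inhibitor that astrocytes secrete, were the glial entries, at 13.54 and 13.24. Hspa8 (13.39), Vsnl1 (13.15), Dynlrb1, Rac3, Fam171b, Enc1 and Atxn10 were not placed in any of these groups. Of the 24 neighbouring pairs in this order 2 did not overlap over the arrays, so the exact ranks carry little. The highest probe set among these genes, in Tubb2b, read 14.47.

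**Figure D2:**
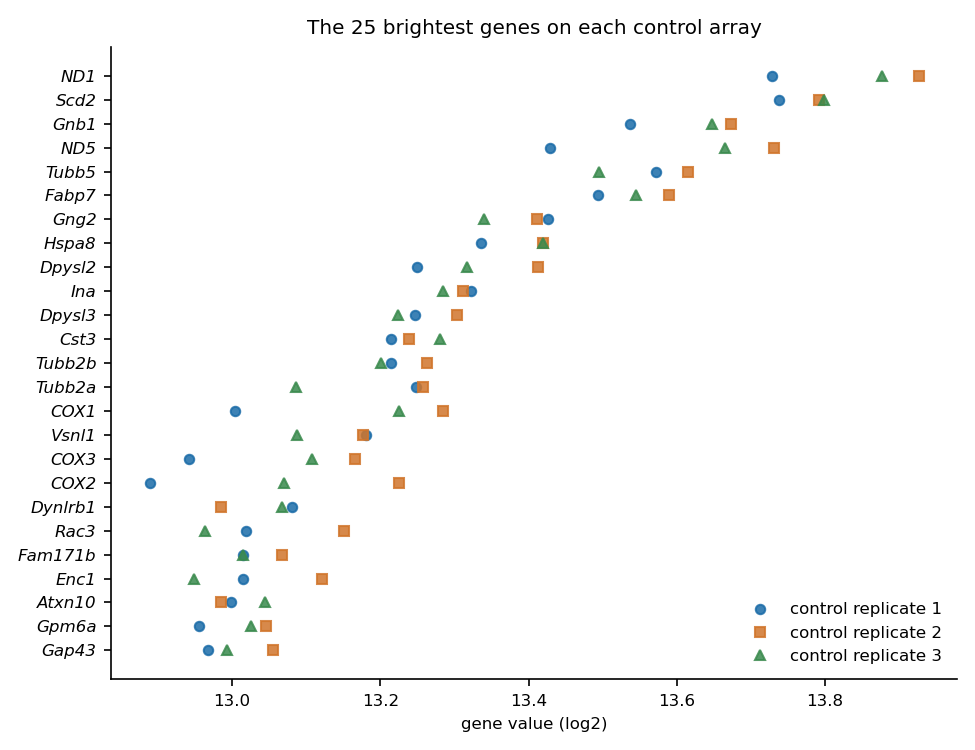
The 25 brightest genes on each control array. The x axis is the gene value (log2), each row is a gene in order of its mean, and blue circles, orange squares and green triangles are control replicates 1, 2 and 3. Values run from 13.01 for Gap43 to 13.84 for ND1, and the mitochondrial genes ND1, ND5, COX1, COX3 and COX2 are lowest on replicate 1.

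Subunit choice was read from the order of the genes within families of receptors, transporters, channels and related proteins. Of the 213 neighbouring pairs in these orders 145 did not overlap over the 3 control arrays, but in 26 the interquartile ranges of the probe sets did not overlap either. Only in those 26 is a step larger than the spread of probe sets within a gene, and the others are given as orders of array signal.

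Among the AMPA receptor subunits, which carry fast glutamate currents, Gria1 (11.56, 11.60 and 11.72) and Gria2 (11.38, 11.46 and 11.50) were higher than Gria4 (10.02, 9.95 and 9.93) and Gria3 (9.70, 9.71 and 9.82). The step from Gria2 to Gria4, 1.48 ± 0.108 (SD over arrays), exceeded the probe set spread. Of their auxiliary proteins Cacng4 (12.14) and the cornichon Cnih2 (12.04) led, and stargazin, Cacng2, stood at 10.28. Gsg1l and Cacng5 were lowest, at 8.96 and 8.67, and all 10 auxiliary genes with a value were above the Hox level.

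Among the NMDA receptor subunits Grin2b was highest on every array, at 11.48, 11.69 and 11.64. The obligatory subunit Grin1 read 10.02, 10.02 and 9.98, lower than Grin2b on every array, which cannot be read as fewer molecules because the probe sets differ. Grin2a read 9.48, 9.61 and 9.28 and Grin2d 9.57, 9.38 and 9.27; these 2 overlapped. Grin2c, the subunit of cerebellar granule cells, had a mean of 7.45, and Grin3b, described in motor neurons, of 6.82. The step from Grin2d down to Grin2c, 1.95, exceeded the probe set spread. Of the kainate receptor genes Grik3 (10.88) and Grik5 (10.57) were highest and Grik1 (7.88, 8.07 and 8.04) lowest, and their auxiliary genes Neto2 (11.98) and Neto1 (11.51) stood above all of them. Of the metabotropic receptors Grm5, which couples to calcium release, read 11.35, 11.36 and 11.52 and Grm3, which astrocytes share, 10.91, 11.05 and 10.87. Grm6, the receptor of retinal bipolar cells, was lowest at 6.29.

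Among the 16 GABA-A receptor subunits with a value Gabra5 (12.36, 12.43 and 12.41) and Gabra3 (11.80, 11.79 and 11.84), alpha subunits known from the immature brain, were highest, followed by Gabrb2 (11.79, 11.76 and 11.57) and Gabrb1 (11.42, 11.53 and 11.61), which overlapped. A step of 1.89 that exceeded the probe set spread separated Gabrb1 from Gabra2 (9.49, 9.47 and 9.93). Gabrd, the delta subunit of extrasynaptic receptors, read 8.09, 8.01 and 7.78. The cerebellar subunit Gabra6 was near the bottom at 4.67, 4.60 and 4.54, and the retinal rho subunits Gabrr1, Gabrr2 and Gabrr3 had means from 5.32 to 6.58.

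Of the GABA-B receptor genes Gabbr1 (11.97, 12.06 and 11.99) stood above Gabbr2 (10.75, 10.77 and 10.75). In the glycine receptor family Glra2, the fetal alpha subunit, read 11.79, 11.61 and 11.79 and the beta subunit Glrb 10.60, 10.64 and 10.74, whereas Glra1, the adult alpha subunit of the spinal cord, read 5.81, 5.45 and 5.40. The gap of 4.53 between Glrb and Glra3 was the widest step between neighbours in any of the families whose probe set ranges did not overlap. The chloride exporter Slc12a5 (KCC2), which rises as GABA becomes inhibitory, read 10.73, 10.63 and 10.46, and the importer Slc12a2 (NKCC1) 9.99, 9.92 and 9.86. KCC2 was higher on every array, by 0.68 ± 0.0719 (SD over arrays), but the probe set ranges of the 2 genes overlapped.

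**Figure D3:**
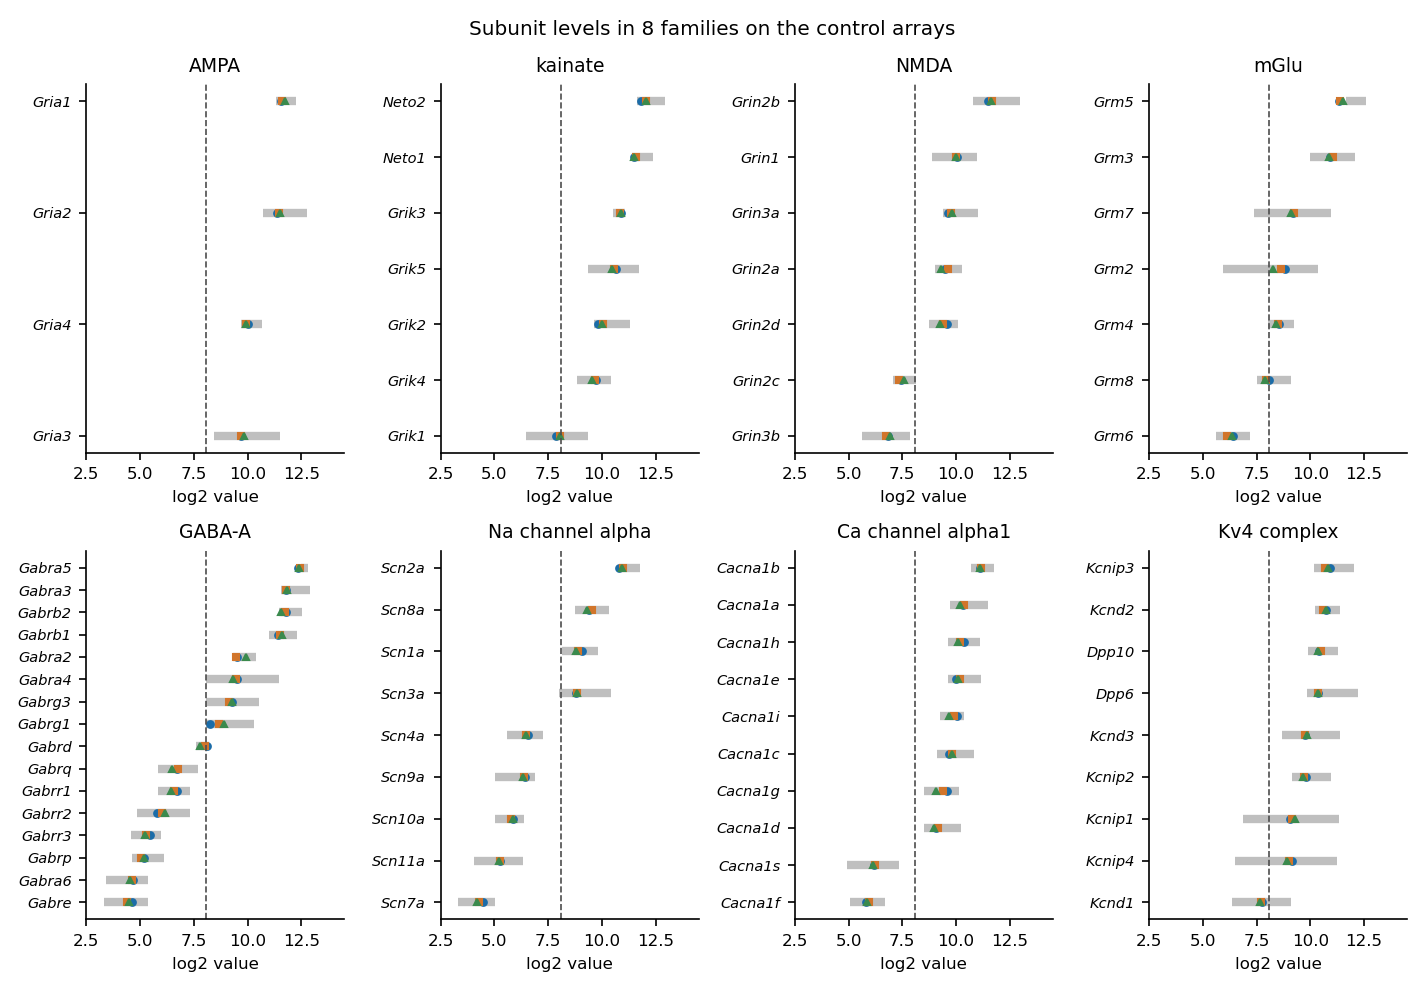
Subunit levels in 8 families on the control arrays. The x axis of each panel is the log2 value; blue circles, orange squares and green triangles are control replicates 1, 2 and 3, grey bars span the lower to the upper quartile of the probe sets of the gene, and the dashed line is the highest Hox gene. Grin2b, Gabra5, Scn2a and Cacna1b lead the NMDA, GABA-A, sodium channel and calcium channel panels, and grey bars are far wider than the spread of the 3 points.

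Of the voltage-gated sodium channels, which carry the action potential, Scn2a was highest on every array (10.80, 10.96 and 10.92). Scn8a, the channel of mature axon initial segments, followed at 9.40, 9.53 and 9.32, 1.48 lower and beyond the probe set spread. Scn1a (9.10, 8.88 and 8.78) and the embryonic Scn3a (8.79, 8.83 and 8.82) overlapped. The muscle and sensory neuron channels Scn4a, Scn9a, Scn10a, Scn11a and Scn7a were all low, with means from 4.33 to 6.49, and a step of 2.33 separated them from Scn3a. The accessory subunit Scn3b read 11.39, 11.36 and 11.39, against a mean of 8.42 for Scn2b.

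Of the calcium channel pore genes 8 of 10 were above the Hox level. Cacna1b, the N-type channel of presynaptic terminals, led at 11.09, 11.15 and 11.09, ahead of the P/Q-type Cacna1a (10.31, 10.38 and 10.20). Cacna1a, Cacna1h, Cacna1e, Cacna1i and Cacna1c followed with means from 10.30 to 9.78, and each neighbouring pair of these overlapped. The skeletal muscle channel Cacna1s and the retinal Cacna1f were low, at 6.18 and 5.88, behind a step of 2.89 that exceeded the probe set spread. The accessory genes Cacna2d1 (10.29) and Cacnb3 (10.76) led their groups.

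Potassium channel families showed several members at like levels. In the Kv1 group Kcna3 (10.73, 10.61 and 10.63) and Kcna2 (10.29, 10.35 and 10.32) were highest, and the muscle and heart channels Kcna5, Kcna7 and Kcna10 had means from 5.74 to 6.67. The Kv4 channels, which carry the A-type current of dendrites, were led by Kcnd2 (10.72, 10.60 and 10.75) with the partner proteins Kcnip3 (10.80), Dpp10 (10.41) and Dpp6 (10.36) beside it, while Kcnd1 was low at 7.71. Of the M-current channels Kcnq3 (10.60, 10.91 and 10.23) varied most and Kcnq5 stood at 9.74. The pacemaker channels Hcn4 (10.08), Hcn3 (9.88) and Hcn2 (9.77) lay close together: the neighbours Hcn4 and Hcn3, and Hcn3 and Hcn2, overlapped over the arrays, and Hcn4 and Hcn2 did not. Of the inward rectifiers Kcnj10, the channel of astrocytes, was highest at 10.03, 9.90 and 10.14, followed by Kcnj3 (9.65), and 4 of 15 were above the Hox level. The leak channels Kcnk1, Kcnk9 and Kcnk12 had means from 9.69 to 9.82, and the acid-sensing channels Asic1 and Asic2 stood at 10.59 and 10.36, while Asic3 of sensory neurons read 6.64. In the remaining groups 7 of 11 calcium-activated, 5 of 7 EAG and ERG, 3 of 3 Kv3 and 3 of 6 TRPC channel genes were above the Hox level. Beside 47.3% of all genes, such counts in small families say little about their members.

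Of the receptors for neuromodulators and ATP, 5 of 14 serotonin, 4 of 16 nicotinic, 3 of 5 muscarinic, 2 of 5 dopamine and 0 of 7 P2X receptor genes were above the Hox level, beside 47.3% of all genes. Chrnb2 (9.96, 9.89 and 9.90), Chrna7 and Chrna4, the nicotinic subunits of the forebrain, overlapped at the top of their family, and the muscle subunits Chrna1, Chrnb1, Chrnd, Chrne and Chrng had means from 5.92 to 6.53. Chrm1 led the muscarinic receptors at 9.70, 9.71 and 9.59. Htr2a (10.54, 10.29 and 10.01) and Htr1b (10.17, 10.08 and 9.89) led the serotonin receptors. Drd2 (9.23, 9.25 and 9.42) stood above Drd1 (8.41, 8.09 and 8.26) on every array.

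CaMKII, the calcium-dependent kinase of synapses, is built from 4 genes, and Camk2b (11.51, 11.52 and 11.42) was highest, ahead of Camk2g (10.93), Camk2a (10.49, 10.55 and 10.44) and Camk2d (9.23). No neighbours overlapped on the arrays, and their probe set ranges did. Camk2a, which comes to dominate in the adult forebrain, was below Camk2b on every array. Of the 13 tubulin genes 11 were above the Hox level. The platelet tubulin Tubb1 and the testis-enriched Tuba8 were low, at 6.79 and 6.43, behind a step of 2.10 from Tubb6.

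The 3 control arrays agreed closely for most genes. Of the 15394 genes above the receptor level on at least 1 control array, the range over the arrays had a median of 0.177, and 16 genes (0.104%) had a range of at least 1. Replicate 3 stood apart in 14 of the 16, replicate 1 in 2 and replicate 2 in 0. Without replicate 3 the count was 1, without replicate 1 it was 9 and without replicate 2 it was 13. Phxr4 had the widest range, with 4.89, 7.06 and 6.30 over 4 dim probe sets. Slc16a3, a lactate exporter induced by hypoxia, read 8.34, 8.15 and 6.89 and was lowest on replicate 3. Angptl4, a lipase inhibitor, read 7.47, 7.54 and 8.75, the matrix gene Efemp1 7.37, 7.18 and 8.40, and Slc7a11, the cystine transporter of astrocytes and of the oxidative stress response, 8.13, 8.29 and 9.35. Kdelr3, a retrieval receptor of the secretory pathway, read 7.14, 7.23 and 8.36, and the galectin Lgals1 7.71, 7.33 and 8.43. In these 5 genes replicate 3 was the highest array. The remaining genes of the first 10 were Dcpp1, Fam24b and Gm26604, with ranges from 1.07 to 1.36.

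Of the 463 genes on the marker and family lists 0 had a range of at least 1. A range of at least 0.5 was reached by 15 of them (3.24%), the same share as among all genes considered (3.24%). They included Ttr (0.78), Gfap (0.72), Kcnq3 (0.67), Gabrg1 (0.63), Grm2 (0.54) and Aqp4 (0.54). Gfap, Aqp4, Ttr and Gabrg1 were highest on replicate 3, and Grm2 (8.80, 8.64 and 8.26) was lowest there. The part of glial RNA in the position of replicate 3 was not tested.

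**Figure D4:**
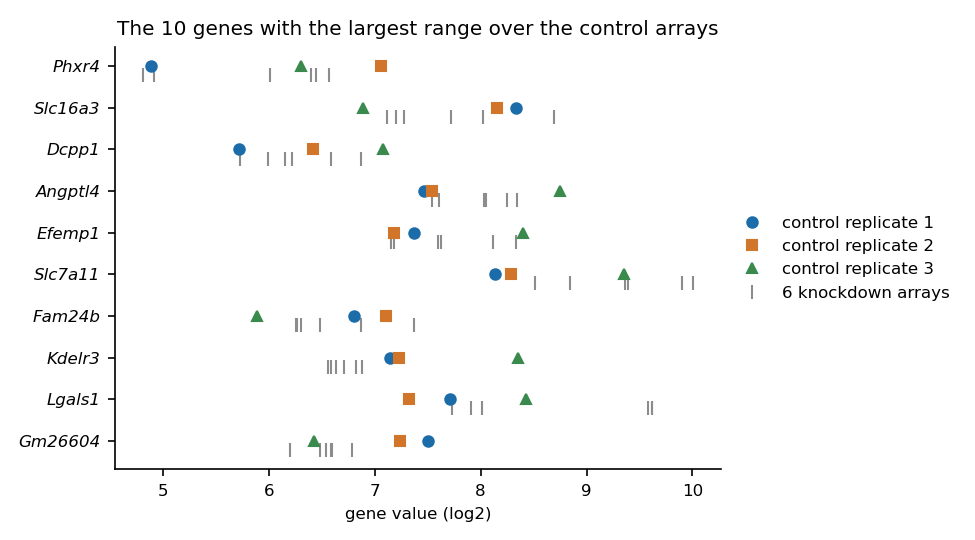
The 10 genes with the largest range over the control arrays. The x axis is the gene value (log2); blue circles, orange squares and green triangles are control replicates 1, 2 and 3, and grey ticks are the 6 knockdown arrays. Replicate 3 is the outlying control in most rows, and for Lgals1 the 3 shTdp-43-2 arrays lie at 9.58 to 9.62, above all controls.

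Within genes, single probe sets often lay far under the rest. A probe set was counted where it lay at least 3 log2 units below the median of the other probe sets of its gene on each control array, in genes above the receptor level with at least 8 probe sets. This held for 16307 of 242955 probe sets (6.71%), in 7009 of 11739 genes (59.7%), with a median gap of 4.37. On all 6 knockdown arrays, which the rule did not use, 13179 of them (80.8%) met the same gap, and 50 met it on none. Just inside the threshold were probe sets of Tbp, Dock4 and Tmem33, with smallest gaps of 3.00001, 3.00003 and 3.0001. Just outside it were those of Elavl1, Osbpl1a and Map4, at 2.99991, 2.99978 and 2.99975. Whether such a probe set marks an exon left out of the transcript, sequence outside the expressed transcript or probes that bind poorly was not tested.

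The 12 deepest gaps, with 1 probe set taken per gene, were in genes of varied function. The RNA-binding gene Pcbp2 had a probe set (5273512) at 2.45, 2.47 and 2.79 while the gene had a value of 11.08, a smallest gap of 9.86. The ribosomal gene Rps10 had a probe set at 2.90, 3.06 and 3.04 with a smallest gap of 9.80, and the coatomer gene Copa had a probe set at 2.45, 2.84 and 2.52 with a smallest gap of 9.75. Next came probe sets of Glud1, Eif2s3x, Atp6v1a, Serinc3, Ube2d3, Ank2, Atp2a2, Pcyox1 and Rpl4, with smallest gaps from 9.69 down to 9.45. All 12 met the gap on all 6 knockdown arrays. Of these, Ank2, a scaffold of axons, is the one with the most probe sets (65), of which 9 were far below.

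The number of such probe sets per gene was highest in Dlg2 and Dst. Dlg2, the synaptic scaffold PSD-93, had 21 of 56, the cytoskeletal linker Dst 21 of 142, Ankrd17 19 of 65 and Ank3, the ankyrin of the axon initial segment, 18 of 77. By list, the share was 18.1% of 260 probe sets in the pan-neuronal genes, 18.0% of 178 in the Kv4 channel complex and 23.3% of 150 in CaMKII, beside 6.71% over all probe sets considered. It was 4.40% in the kainate receptors, 4.38% in the NMDA receptors and 0 of 46 probe sets in the HCN channels. The low microglial and endothelial lists had shares of 1.09% and 1.49%. A bright gene has more room for a gap of 3 than a dim one, as the probe sets far below had a median value of 5.52. The shares were not adjusted for the level of the genes. In the pan-neuronal list Map2 had 11 of 36 far below, at 6.85 to 9.85, while the median of its other probe sets was 13.28. Mapt, the gene of tau, had 8 of 23, at 6.26 to 8.60 against 12.79. Both genes are known for exons that young neurons leave out. In the Kv4 complex Kcnip1 had 9 of 23, at 5.58 to 7.23 against 11.24, and Dpp6 9 of 41. Camk2d had 13 of 48 and Camk2b 10 of 33, genes whose variable linker is spliced in many forms. The probe sets of these genes were not placed in exons, so a link to splicing was not tested.

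For the 5 markers whose promoters are shown the number was 1 of 9 in Tubb3, 3 of 18 in Slc17a7, 3 of 25 in Gad2, 3 of 17 in Gfap and 1 of 23 in Nes. Tuba1c had 5 of 10 far below, at 5.10 to 8.71, against a median of 13.86 of the others. Tubulin genes are alike in sequence, and how much signal of the bright probe sets comes from other tubulins was not tested. Slc1a3 had 0 far below although its probe sets ran from 5.07 to 13.31: the median of its other probe sets is 7.83.

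**Figure D5:**
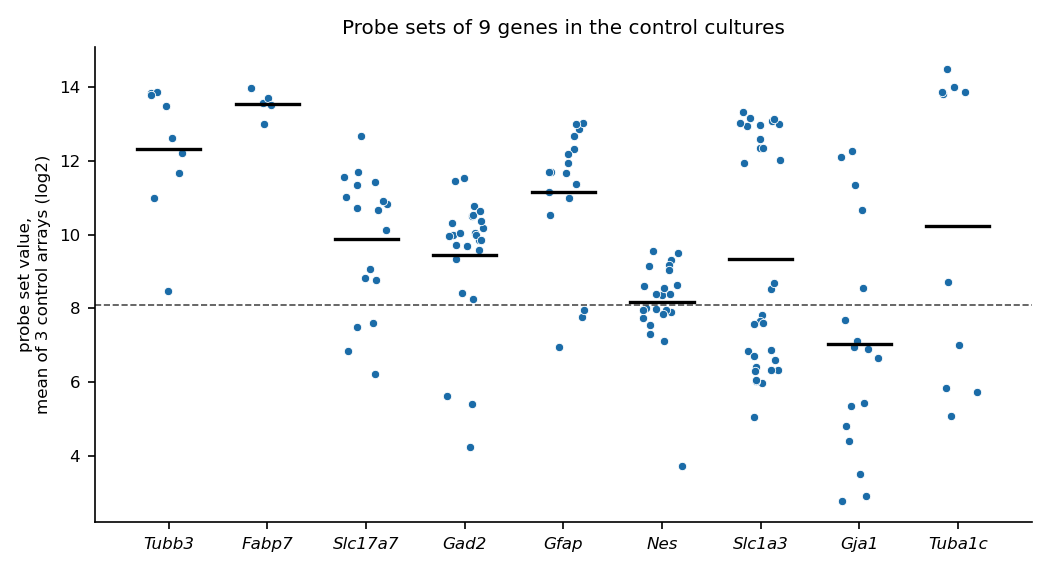
Probe sets of 9 genes in the control cultures. The y axis is the value of a probe set (log2, mean of 3 control arrays); each point is a probe set, shifted sideways at random for visibility, the black bar is the gene value and the dashed line the highest Hox gene. Slc1a3 and Tuba1c split into a bright and a dim group, whereas the 5 probe sets of Fabp7 lie within 12.98 to 13.97.

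The baseline was set against the 6 knockdown arrays to see which of the described genes differ from the rest of the series. Tardbp, which encodes Tdp-43, read 9.70 on average in the controls and 7.93 in the knockdown arrays (log2 difference -1.77 ± 0.144 SE, limma adjusted p = 7.13e-05). In limma, over all 20087 genes, 2738 (13.6%) were called at an adjusted p under 0.05, 1103 (5.49%) higher and 1635 (8.14%) lower with knockdown. After centring of the arrays on their medians the split turned to 1726 higher and 1330 lower. Without control replicate 1, 2 or 3 the count was 1281, 1432 or 1627. Of 223 marker genes 9 were higher and 23 lower (14.3%), a share near that of all genes, and of 248 family genes 25 were higher and 27 lower (21.0%). Of the 25 brightest genes 0 were higher and 2 were lower, Enc1 and Fam171b. Of the 5 markers Tubb3 (difference -0.0044 ± 0.0889 SE, limma adjusted p = 0.980), Gfap (-0.09 ± 0.141, adjusted p = 0.717) and Nes (0.22 ± 0.0901, adjusted p = 0.138) were not called. Gad2 was called higher (0.56 ± 0.109 SE, limma adjusted p = 0.00666) in all 15 other settings, and Slc17a7 (0.39 ± 0.116 SE, limma adjusted p = 0.0452) in 8 of the 15. These calls do not stand for their lists, in which more genes were called lower than higher. Of 19 genes of excitatory neurons 2 were called higher and 6 lower, with a median difference of -0.09. Of 20 genes of inhibitory neurons 1 was called higher and 4 lower, with a median difference of -0.02. Of the 15 astrocyte markers 1 was called higher, Glul, and 3 lower, Agt, Aqp4 and Gja1, beside 13.6% of all genes called. Agt, the angiotensinogen gene, read 9.39 to 9.87 in the controls and 7.40 to 8.69 with knockdown (-1.69 ± 0.123 SE, limma adjusted p = 5.06e-05), and its call was kept in all 15 other settings.

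Called receptor and channel genes came from several families, and some of those called in all other settings are described. Gabbr2, the GABA-B subunit that couples to G proteins, read 10.75 to 10.77 in the controls and from 11.57 to 11.96 with a median of 11.77 in the knockdown arrays, with no overlap (1.01 ± 0.0827 SE, limma adjusted p = 7.13e-05). Chrm2, Chrm3 and Chrm4, 3 of the 5 muscarinic receptors, were higher with knockdown by 0.63, 0.58 and 0.78, and the groups did not overlap for any of them. Chrm1, the highest of that family at baseline, differed by 0.13 (limma adjusted p = 0.384). Cacng5, an auxiliary gene of AMPA receptors, read 8.66 to 8.68 in the controls and 9.01 to 9.71 with knockdown, with no overlap (0.74 ± 0.0774 SE, limma adjusted p = 0.000186). Htr5a, a serotonin receptor, read 8.05 to 8.18 in the controls and 8.64 to 9.37 with knockdown (0.87 ± 0.143 SE, limma adjusted p = 0.0025). The inward rectifier Kcnj2 read 8.40 to 8.89 in the controls and 7.38 to 8.03 with knockdown (-0.97 ± 0.118 SE, limma adjusted p = 0.000453). Trpc4 read 9.78 to 10.08 in the controls and 9.09 to 9.40 with knockdown (-0.70 ± 0.0928 SE, limma adjusted p = 0.000747). Kcnj16, which pairs with the astrocyte channel Kcnj10, differed by -0.65 ± 0.100 SE without overlap, and Slc1a6, a glutamate transporter, by -0.60 ± 0.0693. Cacna2d1, the highest alpha2delta subunit at baseline, differed by -0.63 ± 0.112 SE (limma adjusted p = 0.00388), with overlap of the groups. For Cacna2d1 the hairpins lay apart: 10.17 to 10.40 in the controls, 9.95 to 10.23 with shTdp-43-1 and 9.01 to 9.47 with shTdp-43-2. That difference between the hairpins was not tested. Apart from Chrm1, which was not called, the calls of these genes were kept in all other settings in which they could be fitted.

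For some genes the arrays of the 2 hairpins lay apart. Scn3b, the leading accessory sodium channel subunit, read 11.36 to 11.39 in the controls, 11.21 to 11.41 with shTdp-43-1 and 10.18 to 10.44 with shTdp-43-2. Glra1, low in the controls at 5.40 to 5.81, read 5.79 to 6.40 with shTdp-43-1 and 7.08 to 7.71 with shTdp-43-2. Both were called in the mean of the hairpins (limma adjusted p = 0.000904 and 0.00119), and the difference between the hairpins was not tested for them. Thy1, a surface protein of mature neurons, read 10.65 to 10.76 in the controls and 11.26 to 11.84 with knockdown (0.88 ± 0.0731 SE, limma adjusted p = 7.13e-05). Beside 13.6% of all genes called, a count of 0 in a family of a few genes says little about its members. The families with 0 called genes were the AMPA receptors (0 of 4), the metabotropic glutamate receptors (0 of 7), the calcium channel beta subunits (0 of 4), the Kv2 (0 of 1), Kv3 (0 of 3) and Kv7 channels (0 of 3), the delta receptor Grid1 (0 of 1) and the tubulins (0 of 13). Of the marker lists the same held for the cell cycle, oligodendrocyte, microglial, endothelial, Hox, sex-linked and monoamine genes. The control cultures gave both the baseline described here and the zero of these differences.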

How the data were processed

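Gene expression was measured on 9 Affymetrix Mouse Exon 1.0 ST arrays in 3 groups of 3, of which the shCont group is described. The deposited values are log2 signals per probe set. The submitters' processing notes name RMA, Affymetrix Expression Console and mm9; software versions were not given in the sources used here. Of 1256831 probe sets, 318760 carry 1 gene symbol in the platform annotation, 6684 several and 931387 none, and only the first kind was used. Symbols were updated through RefSeq (GRCm38.p6): 18006 were current, 4227 were updated and 63 were kept. The count of per-sample columns left unused was 0. Because values are RMA signals, read depth does not apply, and the number of arrays limits the precision.

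A gene's value was the mean of at least 3 probe sets. Levels, ranges and gaps are descriptions without a test. Knockdown was compared with shCont in limma (lmFit and eBayes, 3 groups in 1 model, no replicate block, Benjamini-Hochberg over all genes, called under 0.05), after the script was tested on simulated data. The text names the 25 brightest genes (predicted genes and clone-like names passed over), members of the marker and family lists, the 10 genes of largest range and the 12 probe sets of largest gap, 1 per gene; other genes with many such probe sets were chosen after their values were seen. Members and lists were chosen with earlier results of these data known. Alternatives were another summary of probe sets, a filter on dim probe sets, 6 probe sets per gene, other thresholds, centring, quantile normalization, a replicate block and leaving out each array. Tools were R 4.3.3, limma 3.58.1, Python 3.11.15, numpy 2.4.6, pandas 2.3.3 and matplotlib 3.10.9.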

Additional observations from a re-analysis of the deposited data

How the results depend on the processing

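The number of genes above the receptor level, 14411, ranged from 14431 to 14690 when a control array was left out, and was 9499 with the Hox level (chosen after seeing the data) and 9215 with dim probe sets filtered out, which leaves 29 receptor genes to set the level. The number of probe sets far below their gene, 16307, was 29638 with a gap of 2 and 8331 with a gap of 4, and 17355 to 17663 without a control array. The number of genes varying among the controls, 16, was 119 with the median of the probe sets, 8 with the dim filter and 1 to 13 without a control array. The number of genes called between knockdown and control, 2738, was 1472 with the median of the probe sets and 1281 to 2890 without an array. Same-numbered arrays had correlations of deviations from -0.315 to 0.479. These were above 0 in all pairs numbered 1 and 3 but not in all numbered 2, so pairing by number was not established; with the replicate number as a block 2932 genes were called. Of 78 called genes followed across settings (at most 4 per list, and Tardbp) 0 changed direction under any of these settings, and 33, 30 and 23 lost their call without control replicate 1, 2 and 3. Of 492 single-gene levels 364 moved by more than their SD with the median of the probe sets and 481 with the upper quartile (chosen after seeing the data), by a median of 0.86. The cause of these shifts was not tested. Signal over background limits low values: a gene under the Hox level may still be transcribed.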

Other observations

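A probe set of Pde4d, a cAMP phosphodiesterase gene with many isoforms, lay far below the rest of its gene in the controls and less so with 1 hairpin; it was chosen after its values were seen. Its gap to the median of the other probe sets was 3.41, 3.04 and 3.19 log2 units on the control arrays and 4.05, 2.94 and 3.31 with shTdp-43-1, against 1.47, 1.26 and 1.46 with shTdp-43-2. The difference between the hairpins was not tested.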
